A study of Mus musculus with 9 samples.

Results

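The SLC25 family, the carriers of the mitochondrial inner membrane, was followed across testes of Pfn3 mutant mice. Members were all protein-coding genes of the deposited table named Slc25a followed by a number, or Ucp1, Ucp2 or Ucp3, which gave 50 of 38674 genes. Pfn3 encodes profilin 3, a testis-expressed relative of the actin-binding profilins. The table holds 3′-end RNA-seq of whole testis, freed of the tunica albuginea, from 9 male C57BL/6 mice, 3 each of the WT (Pfn3+/+), Het (Pfn3+/-) and KO (Pfn3-/-) genotype. The mutant alleles were frameshift deletions made with Cas9 and a pair of guide RNAs, kept as 3 separate lines on C57BL/6. The methods give sexually mature males aged 2 to 6 months for all experiments, while the age of each sequenced animal and the line it came from are not given in the sources used here. Whole testis mixes germ cells and somatic cells, so fewer cells of a type and less RNA per cell cannot be told apart in any value below. Nothing in the labels says how the animals of a genotype were related, so p-values measure the spread between these animals.

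SLC25 proteins share a fold of repeated helix pairs and swap small molecules between the cytosol and the mitochondrial matrix: ADP for ATP, phosphate, amino acids, Krebs cycle acids, nucleotides, cofactors and iron. The uncoupling proteins belong to the same family, and a few members sit in other membranes, such as SLC25A46 in the outer mitochondrial membrane and SLC25A17 in peroxisomes. In the male germ line the ADP/ATP carrier of most tissues, encoded by the X-linked Slc25a5, is joined by the germ cell carrier Slc25a31, an autosomal gene needed for meiosis and sperm energy supply. E2F6 is known to repress Slc25a31 in somatic cells, and CREM is an activator of many spermatid genes that binds the cyclic AMP response element (CRE).

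Promoters are shown for 3 of the 4 carriers with an unadjusted p under 0.05 in KO against WT, to place the letters linked to these regulators. RefSeq promoters on GRCm38.p6 were matched by symbol for 39 of the 50 carriers. Each window ran from 250 bases before the RefSeq start to 30 bases after it, 280 bases in all, and capitals mark TCCCGC (the E2F6-type motif), the full CRE TGACGTCA and its half-site TGACG, searched on both strands.
Slc25a31, chr3:40708621-40708900, plus strand: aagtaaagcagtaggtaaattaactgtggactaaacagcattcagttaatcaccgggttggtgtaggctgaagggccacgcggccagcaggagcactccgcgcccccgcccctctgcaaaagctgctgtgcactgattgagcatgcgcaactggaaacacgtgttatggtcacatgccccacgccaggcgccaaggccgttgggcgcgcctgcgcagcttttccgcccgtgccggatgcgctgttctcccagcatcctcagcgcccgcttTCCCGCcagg
Slc25a36, chr9:97111012-97111291, minus strand: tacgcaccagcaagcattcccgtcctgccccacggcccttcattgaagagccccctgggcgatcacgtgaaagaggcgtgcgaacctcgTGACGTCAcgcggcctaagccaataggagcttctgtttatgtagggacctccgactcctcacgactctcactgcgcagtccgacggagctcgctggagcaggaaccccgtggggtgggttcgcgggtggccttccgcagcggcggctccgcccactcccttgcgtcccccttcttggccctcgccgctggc
Slc25a40, chr5:8422588-8422867, plus strand: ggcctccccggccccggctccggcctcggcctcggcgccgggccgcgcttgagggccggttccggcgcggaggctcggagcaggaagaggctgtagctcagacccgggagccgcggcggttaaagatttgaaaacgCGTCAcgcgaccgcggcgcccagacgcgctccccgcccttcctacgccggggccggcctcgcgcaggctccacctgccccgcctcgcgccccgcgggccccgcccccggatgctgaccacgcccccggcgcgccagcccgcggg
In Slc25a31 the TCCCGC began 20 bases after the start. In Slc25a36 the full CRE began 161 bases before the start, and this was the only full CRE among the 39 carriers. In Slc25a40 a half-site, read on the other strand as CGTCA, began 114 bases before the start. The half-site also lies inside each full CRE. TCCCGC was found in 18.8% of all 27025 promoters and in 8 carriers (20.5%). The full CRE was found in 1.83% of all promoters and the half-site in 20.1%, against 12 carriers (30.8%) for the half-site. Of the other carriers whose KO and WT animals did not overlap, Slc25a14 held a half-site, Slc25a39 and Slc25a10 held none of these letters, and Slc25a37 had no matched promoter. These are matches of letters in a window, not measured binding. Carrier windows held a median of 15 CpG sites (C followed by G), against 7 over all promoters. Each motif searched holds such a site, and the part of this in the shares above was not tested.

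Read depth and cell make-up were as follows. The recovered reads summed to 3375546 to 4287335 per animal, so 3 reads, the level below which a carrier was taken as not detected, corresponded to 2.58 to 3.71 normalized counts. Pfn3 itself measured 592, 383 and 373 normalized counts in WT, 136, 339 and 326 in Het and 74.7, 215 and 279 in KO, each KO animal being below each WT animal. Spermatocyte markers summed to 2306 to 3355 in WT, 2037 to 4935 in Het and 4363 to 5013 in KO, with 3 of 5 (Sycp1, Sycp2, Sycp3) higher in every KO than in every WT animal. Round spermatid markers summed to 3412 to 4340 in WT, 2810 to 3696 in Het and 1792 to 2851 in KO, with 2 of 4 lower in every KO animal. Elongating spermatid markers summed to 233289 to 249362 in WT, 179063 to 214894 in Het and 123388 to 199672 in KO, with 3 of 4 (Tnp1, Tnp2, Prm2) lower in every KO animal. Leydig cell (2549 to 4447 in WT, 2282 to 3305 in KO), Sertoli cell (4458 to 5040 and 3684 to 6445), erythrocyte (927 to 1243 and 853 to 1200) and macrophage markers (132 to 280 and 214 to 246) overlapped in their sums, with Hba-a1 of the erythrocyte list lower in every KO animal. Spermatogonial markers summed to 60.8 to 86.7 in WT and 81.3 to 90.2 in KO, with Gfra1 higher in every KO animal, and the epididymal markers Lcn8 and Adam7 were at 0 in every animal. The list for brown fat and muscle summed to 0 to 75.3 in WT, with WT 1 at 0, and to 71.5 to 91.9 in KO, with Cidea higher in every KO animal. Of all genes tested, 9.41% were higher and 10.5% lower in every KO than in every WT animal. The marker sums themselves were not tested between genotypes. The paper reports no significant difference for its own marker sets, among them Leydig cell, Sertoli cell, spermatogonial and elongating spermatid genes. What part these differences in germ cell markers have in any carrier's value was not tested.

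The 50 carriers that match the naming rule made up a small share of the testis message. Their normalized counts summed to 3417 to 3856 in WT, 3452 to 4115 in Het and 3512 to 3755 in KO, which was 0.0818% to 0.117% of reads, and 41 to 47 of the 50 members exceeded 3 reads in a given animal. A normalized count from a 3′-end library is not divided by transcript length, so the order of carriers is given on both scales. The highest WT means were those of Slc25a33, a pyrimidine nucleotide carrier (287 ± 66.7, SD, n = 3), Slc25a31 (285 ± 18.0), Slc25a46 (284 ± 29.9), Slc25a4, the ADP/ATP carrier best known from heart and muscle (246 ± 35.3), and Slc25a2, an ornithine carrier encoded by a gene of 1 exon (237 ± 36.8). These 5 held 36.5% of the summed carrier signal, and their order among themselves was not fixed, since the animals of each overlapped those of the next. A gap without overlap followed before the sixth, the mitoferrin Slc25a37 (143 ± 21.1), which was followed by the citrate carrier Slc25a1 (141 ± 59.8) and the other mitoferrin, Slc25a28 (130 ± 66.1). That step was the only one in the whole order at which the WT animals of neighbours did not overlap.

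Divided by the length of the longest coding transcript, the order of WT means became Slc25a2 (173 per kb), Slc25a33 (152), Slc25a31 (134), Slc25a4 (128) and Slc25a28 (84.8), and the 5 highest held 39.1% of the sum. Slc25a46, with the long transcript of 4371 bases, moved to rank 11 (64.9 per kb). In both Het and KO testes Slc25a31 had the highest mean normalized count and Slc25a4 the next. Ucp1, the uncoupling protein of brown fat, was at 0 reads in every animal and was the only carrier at or under 3 reads throughout. Ucp3, known from muscle, stayed between 0 and 5.36 normalized counts, and Ucp2, the broadly expressed member, lay between 27.5 and 137.

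**Figure D1:**
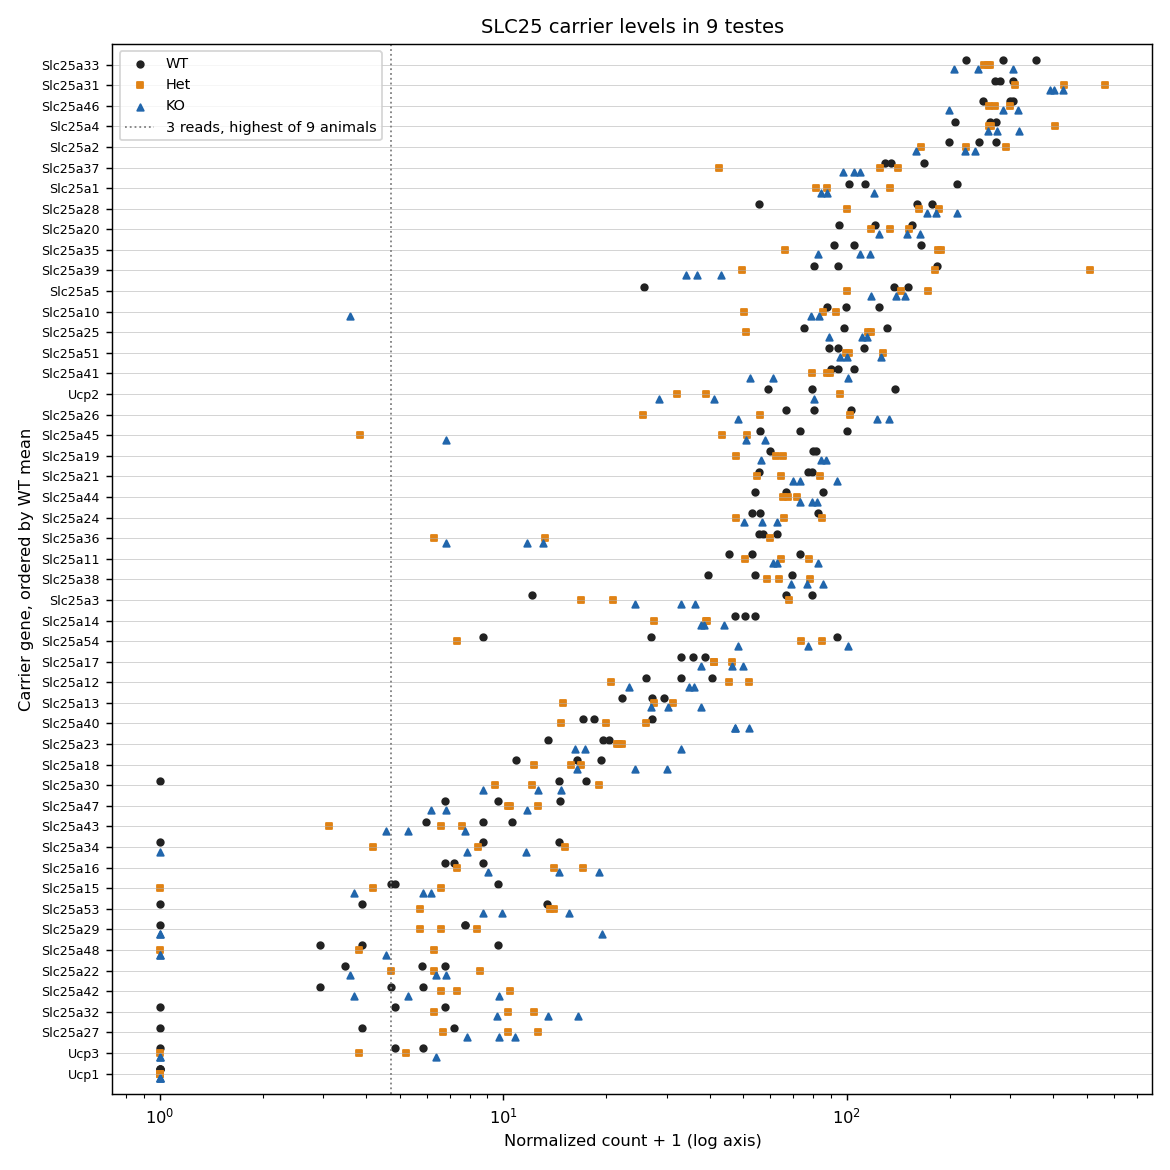
Normalized count plus 1 (log axis) of each of the 50 carriers in 9 testes, ordered by WT mean; points are animals, coloured by genotype, and the dotted line marks 3 reads in the animal with the fewest reads. Slc25a33, Slc25a31, Slc25a46, Slc25a4 and Slc25a2 lead, Ucp1 is at 0, and Slc25a36, Slc25a39, Slc25a10 and Slc25a45 spread widely.

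The comparison of KO with WT asked which carriers change where Pfn3 is deleted. Carriers were tested with limma on log2(normalized count + 1), and a carrier was called where the adjusted p was under 0.05 and the log2 fold change beyond 1.5, upward or downward. A fold change on this scale understates the change of low genes. Of the 50 carriers, 36 passed the filter on low values (10 normalized counts or more in 3 or more of the 6 animals) and were tested, all 36 with animals of both genotypes at that level, while 14 were not. Of the tested carriers, 20 were higher and 16 lower in KO, with a median log2 fold change of 0.09, against 0.02 over all 14223 genes tested, of which 51.4% were higher. The median was -0.02 without KO 2 and 0.02 without WT 1, so its sign is not fixed. None was called by limma or by edgeR, where 0.0352% of all genes were called by limma. At an unadjusted p under 0.05, limma and edgeR each gave 4 carriers. With limma these were 2 higher (Slc25a31 and Slc25a40), where 3.04% of all genes were, and 2 lower (Slc25a36 and Slc25a39), where 5.03% of all genes were. DESeq2 on the recovered reads called Slc25a36 and Slc25a39, where 0.651% of all genes were called.

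KO and WT animals did not overlap for 2 carriers that were higher in KO, Slc25a31 and Slc25a40 (9.41% of all genes), and for 5 that were lower, Slc25a36, Slc25a39, Slc25a10, Slc25a14 and Slc25a37 (10.5% of all genes). Neither count is a result about the family, since genes at large separated at similar rates (1339 and 1490 of 14223).

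**Figure D2:**
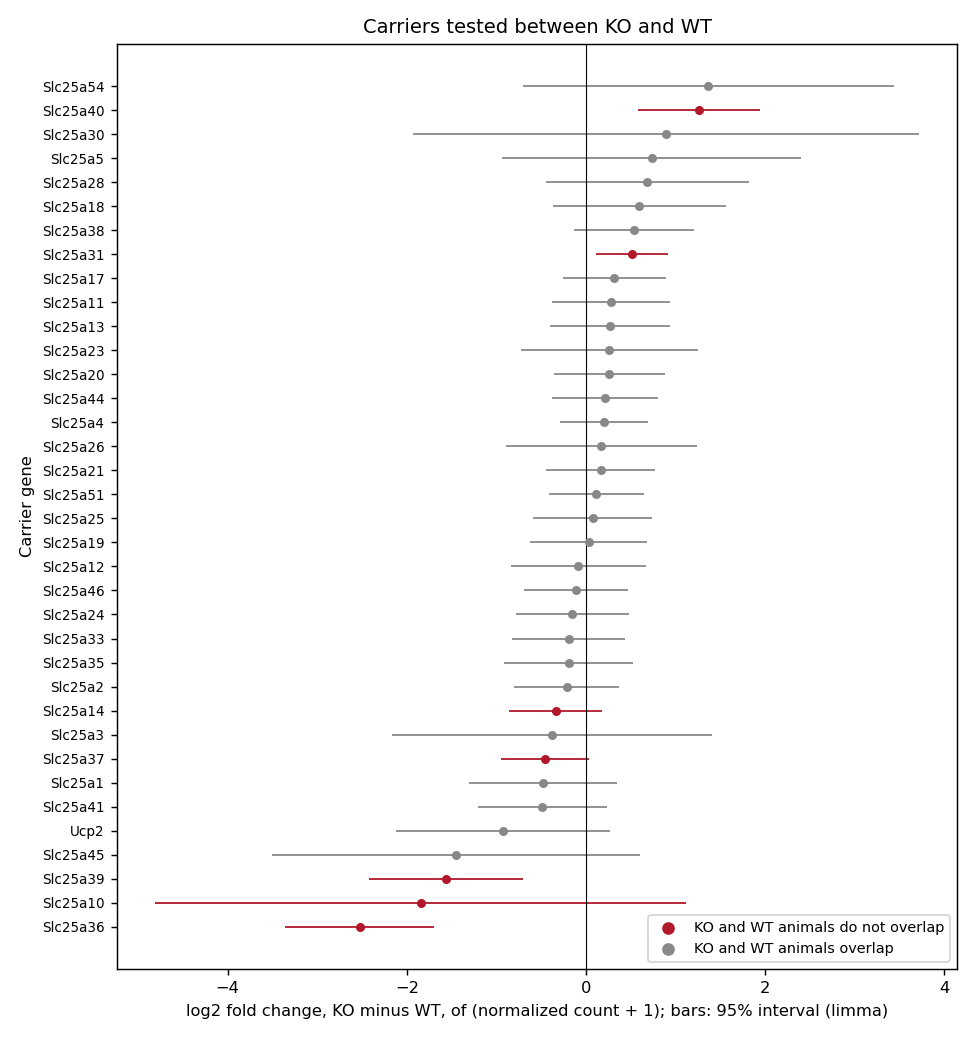
log2 fold change of KO against WT for the 36 carriers tested, with 95% intervals from limma; red marks the 7 carriers whose KO and WT animals do not overlap. Slc25a36 is lowest at -2.53, Slc25a54 highest at 1.36, and the intervals of Slc25a10, Slc25a30 and Slc25a54 are wide.

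Slc25a36 encodes the second pyrimidine nucleotide carrier, which brings building blocks for mitochondrial DNA and RNA into the matrix. The gene lies on chromosome 9 at 97074961 to 97111157 (GRCm38, minus strand, 7 exons), and the CRE shown above lies upstream of its start in the RefSeq and the GENCODE annotation alike. It measured 54.5, 56.0 and 61.8 normalized counts in WT, 12.3, 58.7 and 5.29 in Het and 12.02, 5.80 and 10.7 in KO. All KO animals were thus far below all WT animals, while the Het animals split, with Het 2 at the WT level and Het 1 and Het 3 near the KO level. Behind the KO values stand 14, 6 and 12 reads, against 44, 58 and 64 in WT. The log2 fold change of KO against WT was -2.53 (SE 0.34), and limma's adjusted p was 0.178. edgeR gave an adjusted p of 0.161 and DESeq2 of 3.24e-05, so that the call rests on the DESeq2 test. DESeq2 was also the test the study used. The study picked Slc25a36 on these same animals, so its direction here is no independent evidence. The paper further reports lower Slc25a36 in KO testes by quantitative RT-PCR. It does not say whether that RNA came from the same animals. Leaving out each animal in turn kept the fold change between -2.71 and -2.24, with limma adjusted p-values of 0.149 to 0.564. The long non-coding gene Gm26767 lies 1.53 kb from Slc25a36 on the opposite strand. It was higher in each KO animal (13.4 to 14.6 normalized counts) than in each WT animal (2.48 to 5.79). The Het animals lay at 7.41 to 11.2. Of all genes tested, 9.41% were likewise higher in every KO animal. Every KO animal but no WT animal reached the level of the filter on low values. The WT values were near those of 3 reads (2.89 to 3.71 in WT). Gm16185, which overlaps Slc25a36 on the opposite strand, is not followed here. Whether the counting used strand is not stated, and a link between Gm26767 and Slc25a36 was not tested.

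Slc25a33, the paralogue of Slc25a36, overlapped between KO and WT (204 to 304 against 222 to 355 normalized counts). The share of Slc25a36 in the sum of both was 13.6% to 19.7% in WT and 2.76% to 4.27% in KO, and 4.69%, 18.4% and 2.02% in the Het animals. Among the other 7 nucleotide and cofactor carriers, 4 were tested, and all 4 were slightly higher with no unadjusted p under 0.05, the highest log2 fold change being 0.32.

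The genes for mitochondrial glutathione import, Slc25a39 and its paralogue Slc25a40, differed between KO and WT in opposite directions, without a call by limma. SLC25A39 carries glutathione into the matrix, and SLC25A40 can stand in for it in cultured cells. Slc25a39 (chromosome 11, 102402985 to 102407946, minus strand, 12 exons) measured 79.2, 93.6 and 182 normalized counts in WT, 509, 180 and 48.7 in Het and 42.1, 35.8 and 33.1 in KO. The KO animals lay close together and below every WT and every Het animal, whereas the Het animals spanned more than the whole WT range. The log2 fold change of KO against WT was -1.56 (SE 0.36), with adjusted p-values of 0.562 in limma, 0.584 in edgeR and 0.0418 in DESeq2. It ranged from -1.80 to -1.20 when animals were left out in turn, the latter without WT 3.

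Slc25a40 (chromosome 5, 8422850 to 8454797, plus strand, 12 exons) measured 16.1, 26.0 and 17.4 normalized counts in WT, 18.9, 25.1 and 13.8 in Het and 46.4, 46.4 and 50.9 in KO. The WT and Het animals overlapped throughout, and all KO animals stood above all 6 of them. The log2 fold change was 1.26 (SE 0.28) against WT, with adjusted p-values of 0.529 in limma, 0.563 in edgeR and 0.152 in DESeq2. Against Het it was 1.31 (SE 0.28), with a limma adjusted p of 0.973. Dbf4, a cell cycle kinase subunit transcribed from the opposite strand 0.134 kb away, measured 399 to 423 in WT and 414 to 482 in KO, with overlap. Slc25a40 made up 8.70% to 21.8% of the glutathione carrier signal in WT, 3.58% to 22.0% in Het and 52.4% to 60.6% in KO. The sum of both was 95.3 to 200 in WT and 82.2 to 88.5 in KO.

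**Figure D3:**
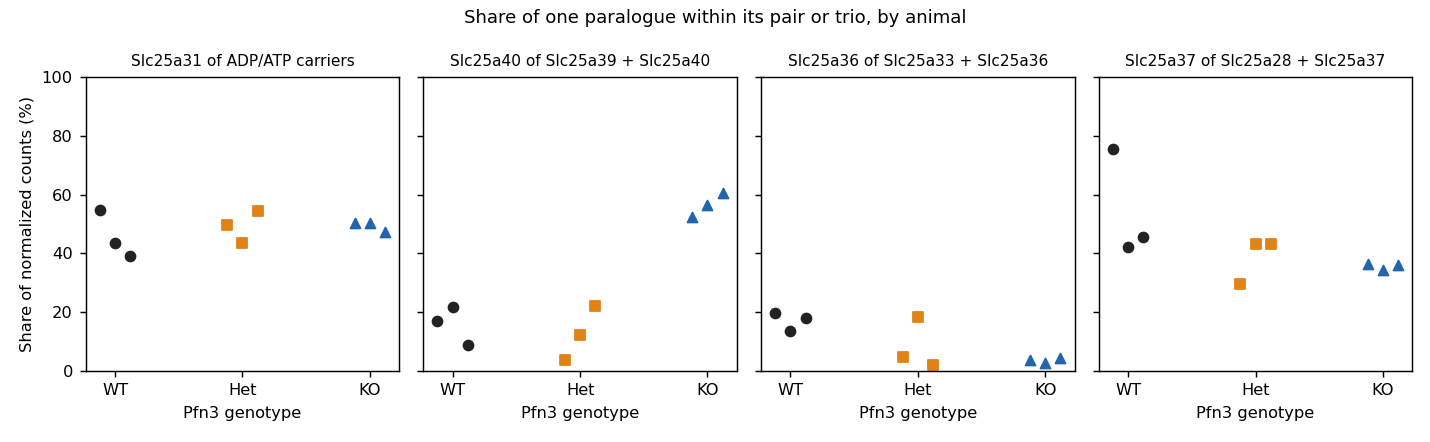
Share of a carrier in the normalized counts of its paralogue group (%), by animal and Pfn3 genotype. Slc25a40 makes up 52.4% to 60.6% of the Slc25a39 and Slc25a40 signal in KO animals and at most 22.0% in the others, and Slc25a36 at most 4.27% of its pair in KO; the Slc25a31 shares overlap.

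The mitoferrins bring iron into the matrix for heme and iron-sulfur clusters. Slc25a37 measured 167, 128 and 133 normalized counts in WT, 41.6, 140 and 124 in Het and 104, 108 and 96.5 in KO. The KO animals were below the WT animals by a log2 fold change of -0.46 (SE 0.20, limma adjusted p = 0.610), and the lowest animal of all was Het 1. Slc25a28 measured 54.5, 177 and 159 in WT and 181, 208 and 171 in KO. WT 1 was the low animal, and without it the log2 fold change of 0.68 (SE 0.47) became 0.15. The share of Slc25a37 in the mitoferrin sum was 75.4%, 42.1% and 45.5% in WT, 29.5%, 43.1% and 43.3% in Het and 34.3% to 36.4% in KO. The 75.4% was that of WT 1, the animal low in Slc25a28.

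The 3 ADP/ATP carriers were all higher in KO by their means. Slc25a31 (chromosome 3, 40708855 to 40726096, plus strand, 6 exons) measured 279, 305 and 270 normalized counts in WT, 565, 309 and 430 in Het and 425, 401 and 391 in KO. Every Het and every KO animal exceeded every WT animal, Het 2 only by a little. The log2 fold change was 0.51 (SE 0.16) in KO, with adjusted p-values of 0.610 in limma, 0.625 in edgeR and 0.268 in DESeq2. In Het it was 0.57 (SE 0.26), with a limma adjusted p of 0.779, and it was 0.36 without Het 1. In KO the unadjusted p of Slc25a31 was no longer under 0.05 without WT 3, KO 1 or KO 3. Both comparisons share the WT animals. The spermatocyte marker sum was above every WT animal in all KO animals and in Het 1 (4935), but not in Het 2 (2037) or Het 3 (3197), whose Slc25a31 also exceeded WT. Its part in these values was not tested.

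Slc25a4 measured 206, 260 and 271 normalized counts in WT, 402, 259 and 262 in Het and 273, 256 and 316 in KO. The genotypes overlapped, and the log2 fold change in KO was 0.20 (SE 0.20). Slc25a5 measured 24.8, 136 and 150 in WT, 172, 143 and 99.5 in Het and 147, 138 and 117 in KO. WT 1 was far below all others, and without it the log2 fold change of 0.73 (SE 0.69) turned to -0.10. Of the last 500 transcript bases of Slc25a5, 26.2% of 50-base stretches also occur in its processed pseudogenes, so its reads may be split and its value is uncertain. Summed over the trio, the ADP/ATP carriers reached 509 to 701 in WT, 711 to 1139 in Het and 795 to 845 in KO. The share of Slc25a31 in this sum overlapped between genotypes, at 39.1% to 54.7% in WT and 47.4% to 50.4% in KO.

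**Figure D4:**
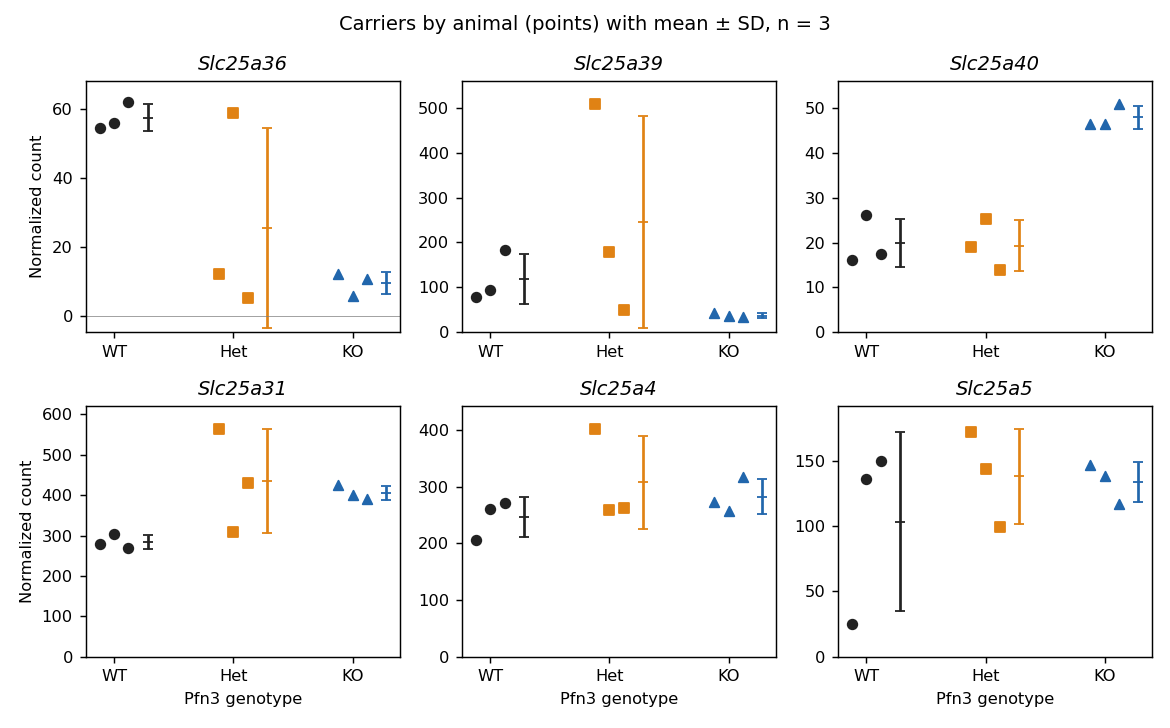
Normalized counts of 6 carriers in each animal (points), with mean ± SD (n = 3) beside them, by Pfn3 genotype. Slc25a36 and Slc25a39 are low in all KO animals and split among Het animals, Slc25a40 is high in KO only (46.4 to 50.9), and the low WT animal of Slc25a5 is WT 1 (24.8).

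Among the phosphate and ATP-Mg/phosphate carriers, 6 were tested, 3 of them higher and 3 lower in KO, with no unadjusted p under 0.05. Slc25a54, which lies beside Slc25a24 on chromosome 3, measured 26.0, 92.6 and 7.72 normalized counts in WT, 72.8, 83.8 and 6.35 in Het and 99.6, 47.4 and 76.0 in KO. WT 3 and Het 3 were low, and the log2 fold change of 1.36 (SE 0.85) fell to 0.52 without WT 3 and rose to 2.23 without WT 2. Slc25a3, the phosphate carrier that feeds ATP synthase, measured 11.1, 65.6 and 78.2 in WT, 19.8, 67.0 and 15.9 in Het and 35.2, 31.9 and 23.2 in KO. The KO animals lay inside the WT range, which WT 1 stretched downward.

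Among the di- and tricarboxylate, oxoacid and acylcarnitine carriers, 3 of 5 were higher and 2 lower. The dicarboxylate carrier Slc25a10 measured 86.7, 123 and 98.5 normalized counts in WT, 49.1, 92.2 and 84.7 in Het and 2.58, 82.2 and 77.8 in KO. The KO animals did not overlap WT, but the size of the fold change, -1.84 (SE 1.22), came from KO 1, with 3 reads. Without KO 1 it was -0.34. Slc25a1 measured 209, 112 and 100 in WT and 86.7, 119 and 83.1 in KO, with overlap and WT 1 as the high animal. The other 3 carriers had log2 fold changes of 0.17 to 0.28.

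Of the 9 amino acid carriers, 6 were tested, 4 higher and 2 lower in KO, between -0.22 and 0.60 on the log2 scale and without an unadjusted p under 0.05. Slc25a2 measured 241, 271 and 198 normalized counts in WT and 236, 159 and 220 in KO, with overlap. Of the uncoupling proteins and close relatives, 3 of 6 were tested. Ucp2 measured 137, 57.9 and 78.2 in WT, 31.2, 94.98 and 38.1 in Het and 27.5, 79.3 and 40.2 in KO. The genotypes overlapped through KO 2, and the log2 fold change was -0.93 (SE 0.49). Of its last 500 transcript bases, 56.8% of stretches also lie in Dnajb13 on the opposite strand, so its counts are uncertain without stranded counting. The same limit holds for 2 carriers given above only within ranges. These are Slc25a21 (32.4% of stretches shared, mainly with Pax9) and Slc25a26 (21.1%, with Lrig1), both with the other gene on the opposite strand.

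Slc25a14, a brain-rich uncoupling protein relative on the X chromosome, measured 49.5, 53.1 and 46.3 normalized counts in WT, 26.5, 38.2 and 38.1 in Het and 42.9, 36.8 and 37.5 in KO. All 6 mutant animals were below all WT animals, by a log2 fold change of -0.34 (SE 0.21) in KO and -0.54 (SE 0.25) in Het, neither with an unadjusted p under 0.05 in limma. Slc25a30, a kidney-rich relative, measured 0, 13.5 and 16.4 in WT and 13.7, 7.74 and 11.6 in KO. Its log2 fold change of 0.90 (SE 1.16) rested on WT 1 and was -0.43 without that animal.

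In the less characterised group 3 of 8 members were tested and all 3 were lower in KO, none with an unadjusted p under 0.05. Slc25a46, whose product takes part in mitochondrial fusion and fission, measured 303, 298 and 249 normalized counts in WT and 314, 197 and 285 in KO, with overlap. Slc25a45 measured 99.0, 55.0 and 72.4 in WT, 2.83, 50.3 and 42.3 in Het and 56.7, 5.80 and 50.05 in KO. Het 1 and KO 2 stood far below their groups, and without KO 2 the log2 fold change of -1.45 (SE 0.85) became -0.45.

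Several carriers differed widely between animals of the same genotype. Of the 35 carriers that reached 20 normalized counts in any animal, 7 (20%) had a highest animal over 5 times the lowest within a genotype, against 22.4% of all genes. They were Slc25a39, Slc25a5, Slc25a10, Slc25a45, Slc25a36, Slc25a3 and Slc25a54. WT 1 was the low WT animal for Slc25a5 and Slc25a3, and Het 3 was the lowest Het animal for Slc25a39, Slc25a36, Slc25a3 and Slc25a54. Of the 14 carriers not tested in KO against WT, 11 overlapped between KO and WT, and 3 were higher in each KO animal, where 5.42% of the 10199 genes with signal under the same filter were. These were Slc25a16 (5.79 to 7.72 in WT, 8.04 to 18.0 in KO), Slc25a32, a folate and FAD carrier (0 to 5.79, 8.59 to 15.5), and Slc25a27, an uncoupling protein relative (0 to 6.19, 6.87 to 9.83). They were named after their values were seen, and none exceeded 21 reads in any animal. With no filter on low values, Slc25a32 joined the carriers with an unadjusted p under 0.05 in limma, 5 in all.

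In Het against WT, 37 carriers were tested, 18 higher and 19 lower, with a median log2 fold change of -0.03 against 0.0069 over all 14216 genes. None was called by limma (0% of all genes), edgeR or DESeq2 (0.184% of all genes), and none had an unadjusted p under 0.05 in limma or edgeR, where 1.46% of all genes were higher and 1.89% lower in limma. Animals did not overlap for 3 carriers that were higher, Slc25a31, Slc25a23 and Slc25a17 (6.76% of all genes), and 3 that were lower, Slc25a14, Slc25a45 and Slc25a41 (6.49% of all genes). Slc25a36 had a log2 fold change of -1.77 (SE 0.80, limma adjusted p = 0.779), which was -2.67 without Het 2, the animal at the WT level, and -1.05 without Het 3. The elongating spermatid marker sum was lower in every Het than in every WT animal, and its part in these values was not tested. The log2 fold change of Slc25a45 was -1.86 (SE 1.02), and it was -0.66 without Het 1.

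In KO against Het, 39 carriers were tested, 21 higher and 18 lower, with a median of 0.09 against -0.0027 over all 14343 genes, and the median was -0.05 without Het 3. None was called by limma (0.0558% of all genes), edgeR or DESeq2 (0.233% of all genes). At an unadjusted p under 0.05, limma and edgeR gave 2 carriers, in limma Slc25a40 as higher (1.74% of all genes) and Slc25a39 as lower (1.82% of all genes). Slc25a40 and the branched-chain amino acid carrier Slc25a44 were higher in every KO than in every Het animal (5.12% of all genes), and Slc25a39 was lower (4.9% of all genes). Slc25a39 had a log2 fold change of -2.14 (SE 0.80, limma adjusted p = 0.973), and the value was -1.33 without Het 1. When animals were left out in turn, its unadjusted p in limma stayed under 0.05 only without Het 3. Slc25a36 had a log2 fold change of -0.75 (SE 0.86), and it turned to 0.15 without Het 2.

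Genes outside the naming rule used here were also followed. They were the pyruvate carrier, the sideroflexins, the porins, Mtch1, Mtch2, Ppif and the TIM22 import machinery that inserts carriers into the inner membrane. The carrier sums above leave out Mtch2, which averaged 3445 normalized counts in WT and 2615 in KO, with overlap. Of the 19 genes listed, 18 were in the table and 16 were tested in KO against WT, 9 higher and 7 lower, with a median log2 fold change of 0.02 and none called by limma. Agk, a lipid kinase that is also a subunit of the TIM22 complex, had a log2 fold change of 0.96 (SE 0.36, limma adjusted p = 0.610) and was the only member with an unadjusted p under 0.05 there. Vdac1, the main porin of most tissues, had 0.58 (SE 0.25) in KO and 0.64 (SE 0.26, limma adjusted p = 0.779) in Het. In Het against WT it was the only gene of this list with an unadjusted p under 0.05 in limma. Its KO and Het animals were all above the WT animals, as they were for 9.41% and 6.76% of all genes in the respective comparisons. Agk was also higher in every KO than in every WT animal. In Het against WT, Timm9 was higher (1.04, SE 0.64) and Timm10 lower (-1.51, SE 0.93), each with a limma adjusted p of 0.779. Both are subunits of the small TIM chaperones. Neither overlapped between Het and WT, where 6.76% of all genes were higher and 6.49% lower without overlap. No member of this list had an unadjusted p under 0.05 in KO against Het.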

How the data were processed

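Total RNA of 9 testes was sequenced as QuantSeq 3′-end libraries. Per the submitters' processing notes and the study's methods, the authors trimmed reads with Trim Galore 0.4.5, aligned them to GRCm38 with HISAT2 2.1, assembled and counted them with StringTie 1.3.3, removed pseudogenes and normalized with DESeq2. The deposited values are a signal: gene counts divided by 1 size factor per animal. Low values stepped in whole multiples of what 1 read is worth, so whole reads were recovered for 100% of nonzero values (tolerance 0.01 read). Groups came from the genotype label.

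The 3 genotypes were compared in pairs over all genes with limma 3.58.1 (empirical Bayes with trend, Benjamini-Hochberg) on log2(signal + 1), for genes reaching 10 in at least 3 animals. limma was made the main test because the deposited values are described as normalized counts. As alternatives, edgeR 4.0.16 (quasi-likelihood) and DESeq2 1.42.0 ran on the recovered reads. Further alternatives were other factors, pseudocounts, filters, a joint fit, a replicate block and leaving out each animal. Coordinates come from GENCODE on GRCm38 and promoters from RefSeq. Named were Slc25a36, the ADP/ATP carriers, Ucp1 to Ucp3, the 8 highest in WT, those with an unadjusted p under 0.05, the 5 largest fold changes each way in KO, those whose KO and WT animals do not overlap, those spreading over 5 times within a genotype, and those at or under 3 reads in every animal; a few more were named after their values were seen. Members and lists were chosen with earlier results of these data known. Slc25a52 and Timm10b, which the lists hold, were not analysed here. The minimum of 3 reads covers counting error only.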

Additional observations from a re-analysis of the deposited data

How the results depend on the processing

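No carrier was called in any of the 3 comparisons under edgeR, TMM factors, pseudocounts of 0.5 and 5, no filter, a filter of 50, all 9 animals in 1 fit, the replicate block or leaving out each animal, and DESeq2 called 2 in KO against WT (Slc25a36, Slc25a39). Carriers with an unadjusted p under 0.05 in KO against WT fell from 4 to 2 with all 9 animals in 1 fit (Slc25a36, Slc25a40) and ranged from 3 to 6 when animals were left out: Slc25a36, Slc25a39 and Slc25a40 were kept each time, Slc25a31 was lost without WT 3, KO 1 or KO 3, and Slc25a3, Slc25a38, Slc25a54, Ucp2 or Slc25a41 came in. In Het against WT they rose from 0 to 3 in that fit (Slc25a14, Slc25a31, Slc25a36) and ranged from 0 to 3 when animals were left out, with 3 without Het 2 (Slc25a31, Slc25a36, Ucp2). In KO against Het they fell from 2 to 0 with a filter of 50, which leaves out Slc25a39 and Slc25a40. They ranged from 1 to 2 when animals were left out. Slc25a40 was kept each time, and Slc25a39 was kept only without Het 3. Slc25a40 stood alone without Het 2, KO 1 or KO 2. Slc25a35 came in without Het 1, and Slc25a41 came in without KO 3. Leaving out animals gave log2 fold changes of -0.43 to 1.63 for Slc25a30 and -0.10 to 1.18 for Slc25a5 in KO against WT, and of -1.47 to 0.15 for Slc25a36 in KO against Het. The median log2 fold change of carriers changed sign when animals were left out, ranging from -0.02 to 0.13 in KO against WT, from -0.10 to 0.01 in Het against WT and from -0.05 to 0.13 in KO against Het. It was 0.03 in KO against WT with a filter of 50, 0.06 by DESeq2 and 0.04 with no filter in Het against WT, and -0.04 by DESeq2 and -0.02 with no filter in KO against Het. The cause was not tested. The share of the 5 highest carriers in WT moved from 36.5% to 39.1% per kb, a scale on which Slc25a28 took the place of Slc25a46 among them. Whether the replicate numbers pair the animals is not stated, and the correlations of deviations (-0.15 to 0.19) cannot settle it. The replicate block left 3 carriers with an unadjusted p under 0.05 in limma in KO against WT, without Slc25a31. The limma adjusted p of Slc25a36 was 0.703 with that block. At this depth 14 carriers were too low to test.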
